A study of Mus musculus with 4 samples.

Results

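The genes described here encode the enzymes of cholesterol and fatty acid synthesis, together with 3 proteins that control them and 1 sterol carrier. They were taken by gene symbol from a named list of 31, and all 31 were found among the 37437 genes of the deposited tables. The list holds 18 sterol enzymes, of which 7 lead from acetyl-CoA to farnesyl pyrophosphate (the mevalonate arm) and 11 from squalene to cholesterol. It also holds 9 fatty acid genes and, as regulators and carrier, Srebf1, Srebf2, Insig1 and Stard4. RNA came from primary mouse cortical culture in which adeno-associated virus carried a knockdown of CTCF (shCTCF) or, as control, of lacZ (shLAC), a bacterial gene. There were 2 libraries of total RNA per group, all from virus-treated cultures, which the labels also call cultured cortical neurons. CTCF, a DNA-binding zinc finger factor, marks insulators and anchors chromatin loops with cohesin. Mouse strain, age, days in culture, time after infection and the hairpin's target were not given in the sources used here, nor was it said whether the replicates were separate cultures, so the p-values speak for the spread of these libraries alone, and that spread may be technical.

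Neurons and glia of the brain make their own cholesterol, because lipoproteins of the blood do not pass into brain tissue in any amount. Astrocytes are known for high sterol synthesis and for exporting cholesterol on apolipoprotein E. The membrane-bound transcription factors SREBP-2 and SREBP-1, encoded by Srebf2 and Srebf1, are released when sterol falls, and they activate the sterol and fatty acid genes respectively, often beside NF-Y, which binds CCAAT. INSIG1 holds them back in the endoplasmic reticulum, so the pathway is regulated as a block by its own product.

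The summed level of the sterol enzymes was 100.1% of control in the knockdown libraries and that of the fatty acid genes 99.99%, and 1 of the 31 genes passed the test. That gene was Acat2, the cytosolic acetoacetyl-CoA thiolase that joins acetyl-CoA units at the head of the mevalonate arm. It fell to 64.3% of control. Values are TPM (a gene's length-corrected share of the transcripts in a library, scaled to a sum of 1000000), divided by a median-ratio factor per library and here called scaled TPM. Changes are differences of log2(scaled TPM + 1), shCTCF minus shLAC, from a limma fit over 11139 protein-coding genes, with p-values adjusted by Benjamini-Hochberg over all of them and a threshold of 0.05.

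In that fit 6.51% of all genes were called, 2.83% higher and 3.68% lower, against 3.23% of these 31 genes (0 higher and 1 lower). At an unadjusted p below 0.05 there were 6 of the 31, or 19.4%, against 23.9% of all genes. The 2 groups did not overlap in 15 of the 31 genes, or 48.4%, against 54.8% of all genes, with 8 above control (27.6% of all genes) and 7 below (27.2% of all genes). The median absolute change was 0.0836 over the 31 genes and 0.0893 over all genes tested. On each of these measures the shares lay near or below the background, so the list as a whole gave no result beyond its single call. All 31 passed the filter on low values.

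The libraries differed in ways that bear on every value here. The factors were 1.05 and 0.832 for shLAC replicates 1 and 2 and 1.10 and 1.05 for shCTCF replicates 1 and 2. The genes tested together held 23.8% and 19.2% of TPM in shLAC replicates 1 and 2 and 24.8% and 23.7% in shCTCF replicates 1 and 2. Most of each library's TPM thus lay outside them. In shLAC replicate 2 8.55% of TPM came from a pair of predicted genes, Gm10719 and Gm10800, whose share elsewhere was 0.17% to 0.768%. Before scaling, the median change over all genes was 0.17 in place of 0.00, and 29 of the 31 genes lay above 0 (all but Acat2 and Hsd17b7), so a change is given relative to that shift. Ctcf itself was at 8.11 and 8.80 scaled TPM in shLAC and at 3.25 and 3.40 in shCTCF. This is a change of -1.13, with SE 0.0668 and a limma adjusted p of 0.00209 (n = 2 per group). Sequencing depth cannot be read from TPM and is unknown, so counting error has no interval here.

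Promoters are shown for 4 of the genes, since SREBP and NF-Y sites are the feature this family is known to share. Acat2 is shown because it fell, Dhcr7 and Hsd17b7 because they lay nearest the threshold, and Hmgcs1, chosen after the motif search, because it held the only sterol regulatory element found. Each run is the 250 bases before the RefSeq transcription start on GRCm38.p6 (the assembly of mm10), read 5′ to 3′ on the gene's strand. Capitals mark CCAAT (or its complement ATTGG) and the sterol regulatory element.
Acat2, chr17:12960726-12960975, - strand: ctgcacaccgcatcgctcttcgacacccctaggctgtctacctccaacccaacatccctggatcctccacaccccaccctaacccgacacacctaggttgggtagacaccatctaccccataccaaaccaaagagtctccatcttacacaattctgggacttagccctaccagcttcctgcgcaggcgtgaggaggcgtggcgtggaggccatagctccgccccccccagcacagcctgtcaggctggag
Hmgcs1, chr13:119690101-119690350, + strand: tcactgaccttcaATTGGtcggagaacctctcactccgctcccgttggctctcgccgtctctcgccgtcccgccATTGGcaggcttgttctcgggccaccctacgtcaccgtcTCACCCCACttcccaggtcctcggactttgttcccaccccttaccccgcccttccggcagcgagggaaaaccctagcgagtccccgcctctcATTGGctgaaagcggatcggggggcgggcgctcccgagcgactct
Hsd17b7, chr1:169969206-169969455, - strand: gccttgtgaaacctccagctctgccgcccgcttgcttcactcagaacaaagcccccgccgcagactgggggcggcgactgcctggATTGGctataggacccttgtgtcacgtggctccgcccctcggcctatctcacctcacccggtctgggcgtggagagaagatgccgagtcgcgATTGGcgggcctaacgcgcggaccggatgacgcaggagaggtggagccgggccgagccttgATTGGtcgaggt
Dhcr7, chr7:143829964-143830213, + strand: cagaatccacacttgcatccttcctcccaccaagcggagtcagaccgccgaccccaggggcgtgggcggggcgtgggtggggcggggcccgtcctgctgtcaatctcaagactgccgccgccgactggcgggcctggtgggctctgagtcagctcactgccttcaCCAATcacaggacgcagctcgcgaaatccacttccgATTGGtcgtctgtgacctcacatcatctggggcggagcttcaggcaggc

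RefSeq's table gave a promoter window of 300 bases (250 before and 50 after the start) for 24 of the 31 genes, 29 windows in all, and motifs were searched on both strands of each. CCAAT was found in 20 of the 24 genes and in 72.4% of their windows, against 37.4% of all 32851 windows and 38.0% of those of the genes tested. The 4 genes without it were Acat2, Acaca, Elovl6 and Fads2. The only Acaca window, from 84195188 on chromosome 11, lies inside a gene annotated from 84129672. Sequence before that annotated start was not searched. Dhcr7 had it in 1 of its 3 windows, the one shown. That window lies inside the annotated gene, and the Dhcr7 windows not shown held no CCAAT. The Sp1 motif GGGCGG was in 75.9% of the windows, against 35.7% of all windows and 63.9% of those of the genes tested. The E-box CANNTG, which can lie over part of another motif, was in 75.9%, against 72.3% and 62.4%. TCACNCCAC, the form of the sterol regulatory element searched, was in 1 of the 29 windows, that of Hmgcs1, 137 bases before the start, and in 1.24% of all windows. The windows thus share CCAAT more often than other promoters do, as a description of letters, and a window without a match says nothing about binding. The Acat2 window held 0 matches to CCAAT, to the E-box and to the sterol element, and 1 to GGGCGG.

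The mevalonate arm was led by its head gene. Acat2 (ENSMUSG00000023832, GRCm38 chromosome 17, 12942890 to 12960747, - strand) had deposited levels of 51.5 and 40.9 TPM in shLAC and of 34.6 and 33.2 TPM in shCTCF. After scaling it stood at 49.2 TPM in each shLAC library and at 31.6 and 31.7 TPM in the shCTCF libraries. Both knockdown libraries lay below both controls on either scale, and replicates of a group nearly coincided once scaled. The fitted change of Acat2 was -0.62 (SE 0.0448, 95% interval -0.73 to -0.51, limma adjusted p = 0.00256, n = 2 per group), the 84th lowest of 11139. The standard error rests mostly on the spread of other genes of like level, since the gene's own replicates differed by 0.00068 and 0.00654 log2 units. The call held without each library in turn (limma adjusted p up to 0.00771) and over all genes after scaling (limma adjusted p = 0.0242). In the values as deposited the change was -0.43 and the call was lost (limma adjusted p = 0.501), in fits that called 2.82% of all genes and 1.4% of coding genes. With 2 libraries a side, exact permutation could not give a 2-sided p under 0.333.

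No other tested gene close to Acat2 passed. Acat3, the paralog whose start lies 20.1 kb downstream, is 97.7% identical over 1477 aligned bases of transcript, so reads of the pair could be divided wrongly. As deposited it was at 0.34 and 0.19 TPM in shLAC and at 0.27 and 0.25 in shCTCF, values that such a division would itself affect, and its part in the Acat2 result was not tested. Of the other genes that start within 100 kb, the tested ones gave changes of -0.10 (Sod2, mitochondrial superoxide dismutase), -0.12 (Wtap, a subunit of the RNA methylation complex), -0.08 (Mrpl18, a mitochondrial ribosomal protein), -0.06 (Tcp1, a chaperonin subunit) and -0.32 (Mas1, a receptor). Their limma adjusted p ran from 0.179 (Wtap) to 0.521 (Tcp1). Acat1, the mitochondrial thiolase of the same reaction, was at 24.0 and 24.4 scaled TPM in shLAC and at 22.8 and 22.7 in shCTCF (change -0.08, limma adjusted p = 0.328).

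The remaining 6 enzymes of the mevalonate arm did not pass. Hmgcs1 (ENSMUSG00000093930, chromosome 13, 119690379 to 119708260, + strand), the HMG-CoA synthase that uses the product of Acat2, was the most abundant of the 31 genes. It stood at 262 and 280 scaled TPM in shLAC and at 286 and 288 in shCTCF, so that the knockdown libraries lay slightly above. Its change was 0.08 (95% interval -0.04 to 0.21, limma adjusted p = 0.383). Fdps, farnesyl pyrophosphate synthase, was at 99.2 and 92.5 scaled TPM in shLAC and at 86.1 and 95.4 in shCTCF, with overlapping groups (change -0.08, limma adjusted p = 0.501). The kinases Mvk and Pmvk, the decarboxylase Mvd and the isomerase Idi1 had changes from 0.07 to 0.10, at mean scaled levels of 19.6 to 29.8 TPM in shLAC. Summed over the 7 genes, the arm was at 513.5 and 521.9 scaled TPM in shLAC and at 509.6 and 524.2 in shCTCF. The sum thus held at 99.85% of control although Acat2 was lower. Hmgcs1 alone averaged 271 of the mean 517.7 scaled TPM in shLAC, so the sum says little of the less abundant enzymes.

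**Figure D1:**
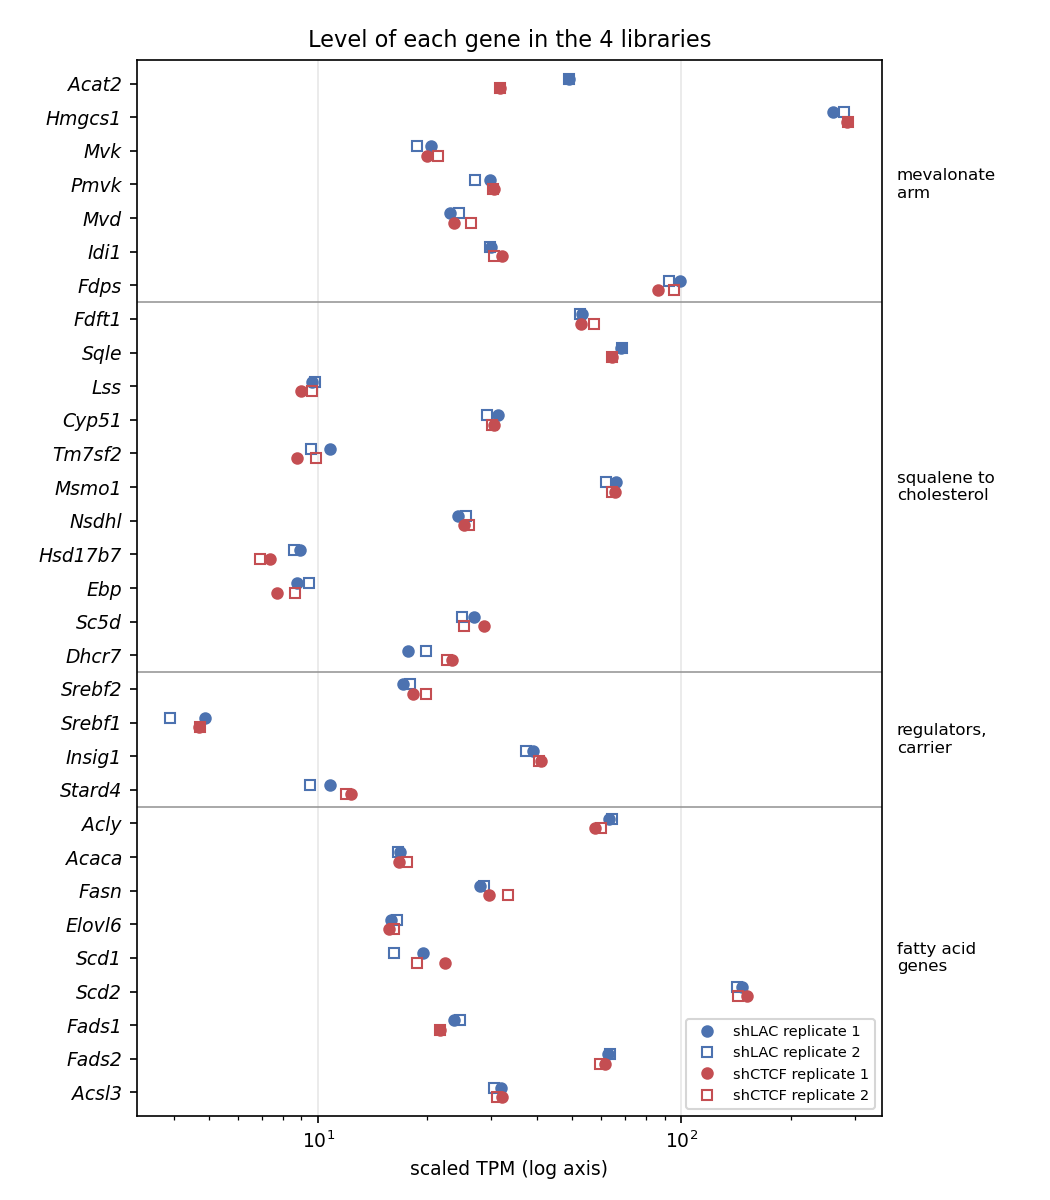
Scaled TPM (log axis) of the 31 genes in the 4 libraries, in pathway order; blue, shLAC; red, shCTCF; filled circle, replicate 1; open square, replicate 2. Levels run from Srebf1 at 3.92 to Hmgcs1 at 288 scaled TPM, and Acat2 is the gene whose groups lie farthest apart.

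From squalene to cholesterol, 0 of 11 enzymes passed, and 2 of them lay at the threshold in opposite directions. Dhcr7 (ENSMUSG00000058454, chromosome 7, 143823145 to 143848410, + strand), the reductase of the last step to cholesterol, was at 17.7 and 19.8 scaled TPM in shLAC and at 23.4 and 22.7 in shCTCF. Both knockdown libraries lay above both controls. The change was 0.29 (SE 0.0648, 95% interval 0.13 to 0.44, limma adjusted p = 0.0503). Without each library in turn it ran from 0.21 to 0.37. Hsd17b7 (ENSMUSG00000026675, chromosome 1, 169949535 to 169969241, - strand), the 3-ketosteroid reductase of C4 demethylation, was at 8.93 and 8.61 scaled TPM in shLAC and at 7.35 and 6.94 in shCTCF. It was lower in both knockdown libraries, with a change of -0.26 (SE 0.0597, 95% interval -0.41 to -0.12, limma adjusted p = 0.0503). Without each library in turn the change ran from -0.30 to -0.23. Neither gene passed over all genes after scaling (limma adjusted p = 0.14 for Dhcr7 and 0.119 for Hsd17b7).

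The other 9 enzymes of this stretch had changes from -0.14 (Ebp, the sterol isomerase) to 0.06 (Fdft1, squalene synthase). Sqle, the squalene epoxidase and a rate-limiting step, was at 68.4 and 68.6 scaled TPM in shLAC and at 64.4 in each shCTCF library. Its replicates nearly coincided and its groups did not overlap, yet the change was only -0.09 (95% interval -0.19 to 0.02, limma adjusted p = 0.281). Msmo1, the C4 methyl oxidase, was at 66.3 and 62.0 scaled TPM in shLAC and at 65.5 and 64.5 in shCTCF. Cyp51, the C14 demethylase, was at 31.2 and 29.2 in shLAC and at 30.5 and 30.1 in shCTCF, and its change of 0.01 was the smallest of the 31. Lss, Tm7sf2, Nsdhl and Sc5d, which close the ring, reduce, demethylate and desaturate it, lay between -0.12 and 0.05. Reads of 4 of these genes may be shared with exons of a neighbour. On the opposite strand, Fdft1 overlaps Ctsb over 774 bases, Lss overlaps 4930483K19Rik over 381 and Cyp51 overlaps Akap9 over 166. Tm7sf2 overlaps Vps51 on the same strand over 532. The stretch summed to 326.0 and 320.0 scaled TPM in shLAC and to 323.1 and 325.6 in shCTCF, 100.4% of control.

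The regulators and the carrier were each slightly higher on average, and 0 of 4 passed. Srebf2 (ENSMUSG00000022463, chromosome 15, 82147181 to 82205379, + strand), which encodes SREBP-2, was at 17.1 and 17.9 scaled TPM in shLAC and at 18.2 and 19.8 in shCTCF. The change was 0.11 (95% interval -0.03 to 0.26, limma adjusted p = 0.30). Srebf1 (ENSMUSG00000020538, chromosome 11, 60199089 to 60222581, - strand) was the least abundant of the 31, at 4.89 and 3.92 scaled TPM in shLAC and at 4.71 and 4.73 in shCTCF. Its groups overlapped, and the change of 0.09 (limma adjusted p = 0.605) turned to -0.04 without shLAC replicate 2.

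Insig1 (ENSMUSG00000045294, chromosome 5, 28071363 to 28078662, + strand), itself a target of SREBP and a common readout of its activity, was at 39.1 and 37.4 scaled TPM in shLAC and at 41.0 and 40.6 in shCTCF. Its change was 0.09 (95% interval -0.02 to 0.21, limma adjusted p = 0.294). Stard4 (ENSMUSG00000024378, chromosome 18, 33199355 to 33213862, - strand), a soluble carrier that moves cholesterol between membranes, was at 10.8 and 9.49 scaled TPM in shLAC and at 12.3 and 11.9 in shCTCF. Both knockdown libraries lay above both controls, with a change of 0.24 (SE 0.0709, 95% interval 0.07 to 0.40, limma adjusted p = 0.105). Without each library in turn the change ran from 0.15 to 0.32. The 4 genes summed to 71.9 and 68.7 scaled TPM in shLAC and to 76.3 and 77.1 in shCTCF, 109.1% of control.

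**Figure D2:**
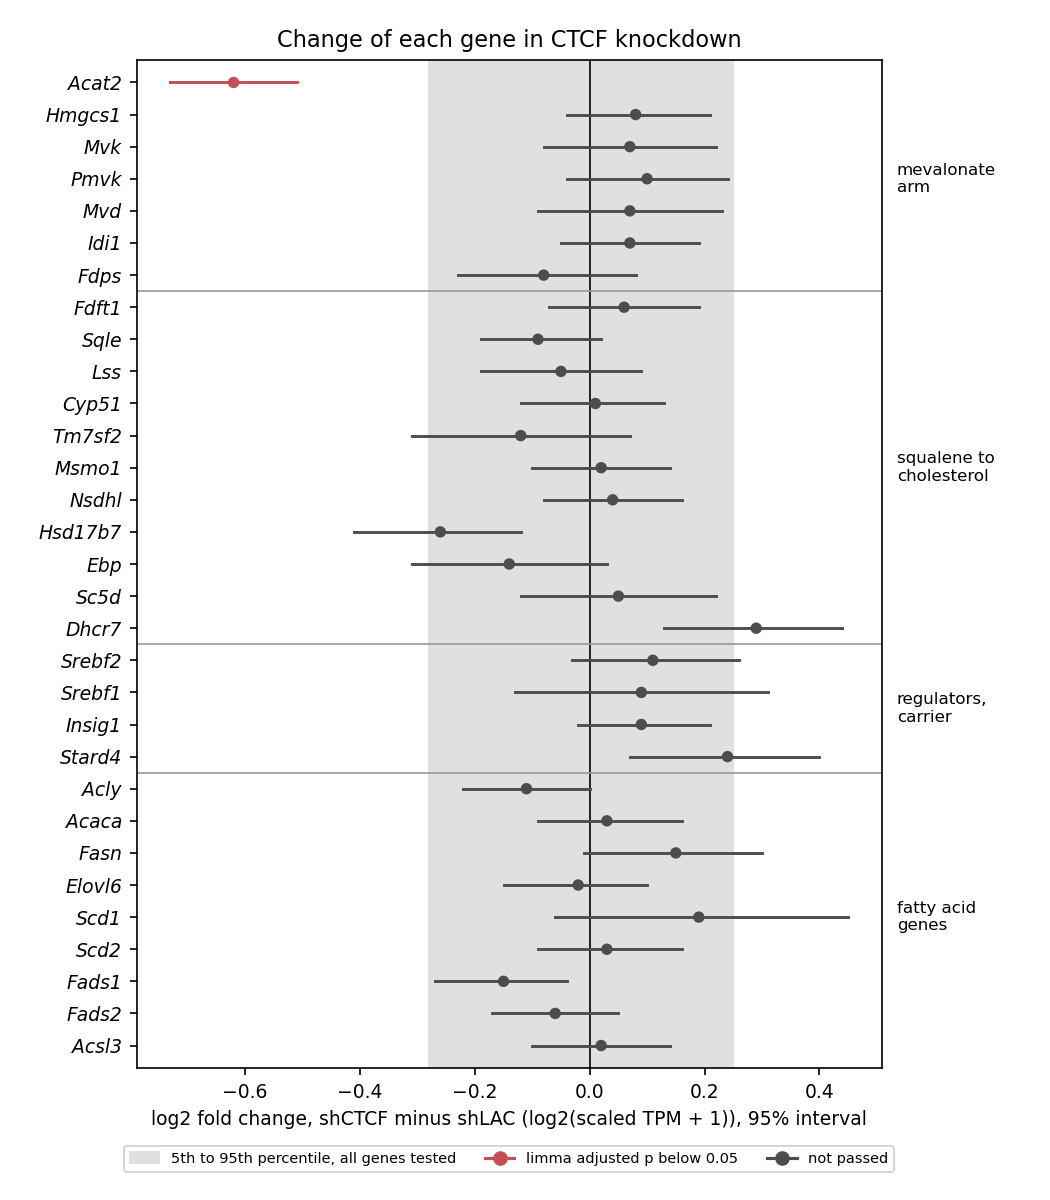
Log2 fold change (shCTCF minus shLAC, log2(scaled TPM + 1)) of the 31 genes with 95% intervals from limma; the grey band spans the 5th to 95th percentile of all genes tested, -0.28 to 0.25. Acat2 at -0.62 is the only gene that passed, and Dhcr7 at 0.29 is the only other point outside the band.

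Among the fatty acid genes, 0 of 9 passed. Scd2 (ENSMUSG00000025203, chromosome 19, 44293674 to 44306864, + strand), the main stearoyl-CoA desaturase of brain, was the second most abundant of the 31, at 147 and 142 scaled TPM in shLAC and at 152 and 143 in shCTCF. The groups overlapped, with a change of 0.03 (95% interval -0.09 to 0.16, limma adjusted p = 0.748). Its paralog Scd1 was at 19.5 and 16.2 in shLAC and at 22.4 and 18.7 in shCTCF. Replicates of Scd1 were farther apart than the group means, so the change of 0.19 had the widest interval of the 31 (-0.06 to 0.45, limma adjusted p = 0.32). Without each library in turn the change of Scd1 ran from 0.07 to 0.32. The pair is 89.3% identical over 1190 aligned bases, so some reads may have been divided wrongly between them.

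Acly (ENSMUSG00000020917, chromosome 11, 100476353 to 100528000, - strand), the citrate lyase that makes the cytosolic acetyl-CoA both branches draw on, was at 63.3 and 64.4 scaled TPM in shLAC and at 57.9 and 60.1 in shCTCF. It lay lower in both knockdown libraries, by -0.11 (95% interval -0.22 to -0.00, limma adjusted p = 0.205). Fads2, the delta-6 desaturase of polyunsaturated fatty acids, was at 63.0 and 63.6 in shLAC and at 61.5 and 59.8 in shCTCF (change -0.06, limma adjusted p = 0.466). Fads1, the delta-5 desaturase encoded beside it, was at 23.7 and 24.6 in shLAC and at 21.6 and 21.7 in shCTCF (change -0.15, limma adjusted p = 0.119). Both desaturases thus lay below control without overlap, and neither passed.

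Fasn, the fatty acid synthase, lay on the other side, at 28 and 28.6 scaled TPM in shLAC and at 29.6 and 33.4 in shCTCF (change 0.15, limma adjusted p = 0.23). Acaca, the carboxylase that commits acetyl-CoA to this branch, was at 16.8 and 16.6 in shLAC and at 16.7 and 17.6 in shCTCF. Elovl6, which extends palmitate, and Acsl3, which activates fatty acids at lipid droplets, had changes of -0.02 and 0.02 with overlapping groups.

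Set side by side, the branches did not differ in these data beyond the spread of the libraries. The median change was 0.03 over the 18 sterol enzymes and 0.02 over the 9 fatty acid genes, a difference of 0.01, against 0.00 over all genes. The sterol enzymes summed to 839.5 and 841.9 scaled TPM in shLAC and to 832.7 and 849.8 in shCTCF, or 840.7 ± 1.68 against 841.3 ± 12.1 (mean ± SD, n = 2). The fatty acid genes summed to 408.7 and 402.6 in shLAC and to 409.8 and 401.4 in shCTCF, or 405.6 ± 4.32 against 405.6 ± 5.94. In the sums of both branches the groups overlapped. Abundant genes weigh most in these sums, with Hmgcs1 averaging 271 and Scd2 144 scaled TPM in shLAC. For the 30 genes that did not pass, each 95% interval lay within 0.5 log2 units of 0, a fold of 1.41, the outermost bounds being -0.41 (Hsd17b7) and 0.45 (Scd1).

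**Figure D3:**
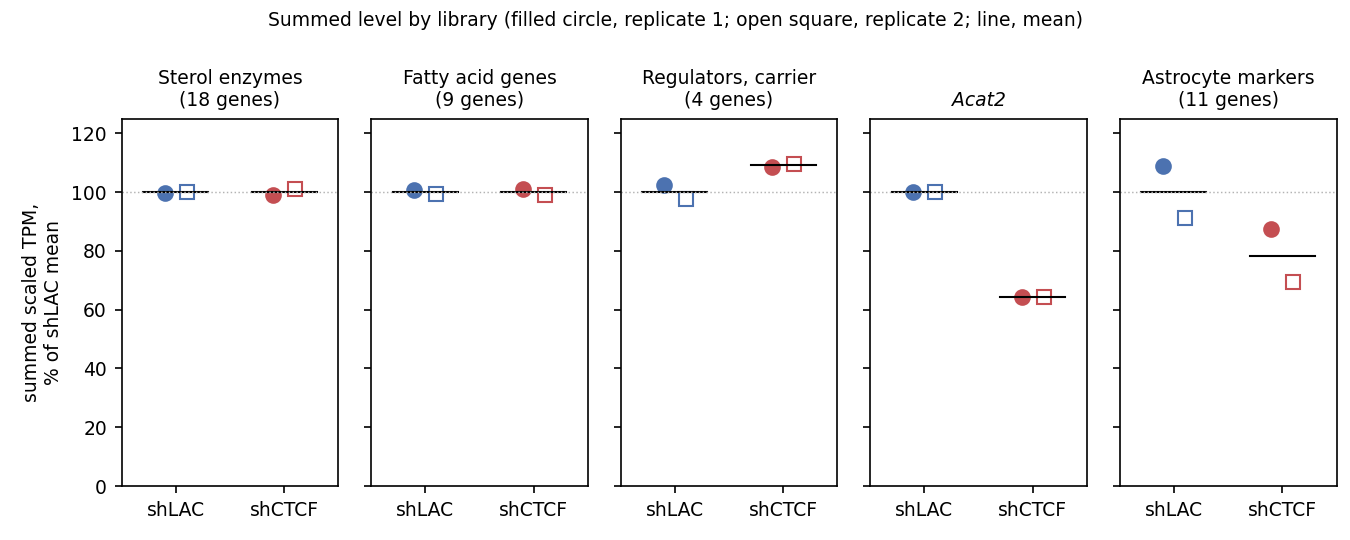
Summed scaled TPM per library as a percentage of the shLAC mean for the sterol enzymes, fatty acid genes, regulators with carrier, Acat2 alone and astrocyte markers; black lines are group means. The branch sums lie at 100.1% and 99.99% of control, Acat2 at 64.3% and the astrocyte markers at 78.36%.

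The genes around the pathway moved singly as well. Scap, the escort of SREBP, was at 12.6 and 12.3 scaled TPM in shLAC and at 14.3 and 14.9 in shCTCF, without overlap (change 0.21, limma adjusted p = 0.0667). In the branch that leads to prenyl groups, 1 of 14 genes fell: Rabggta, a subunit of the Rab geranylgeranyl transferase, went from 6.66 and 6.85 to 4.50 and 4.38 scaled TPM (change -0.51, SE 0.0601, limma adjusted p = 0.00699). Over all genes after scaling the limma adjusted p of Rabggta was 0.042.

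Of 12 genes of lipoprotein uptake and lysosomal sterol release, 1 rose and 11 did not pass. Lrp1, a large receptor that takes up apolipoprotein E, rose from 17.7 and 16.3 to 21.8 and 23.0 scaled TPM (change 0.38, SE 0.0609, limma adjusted p = 0.0182), and lost its call without shCTCF replicate 2 (limma adjusted p = 0.0803). Of 10 tested genes of efflux, esterification and oxysterols, Nceh1, a cholesteryl ester hydrolase, fell from 11.6 and 12.5 to 7.74 and 7.15 scaled TPM (change -0.63, SE 0.0659, limma adjusted p = 0.00523), also without each library in turn (limma adjusted p up to 0.016), and 9 did not pass.

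Fatty acid genes outside the list were likewise near control. Of 25 tested, Fabp3, a fatty acid binding protein, rose from 57.7 and 56.0 to 66.5 and 70.1 scaled TPM (change 0.26, limma adjusted p = 0.0322). In beta-oxidation, 1 of 14 rose: Acaa2, the mitochondrial thiolase of its last step, from 5.44 and 4.99 to 6.76 and 6.72 scaled TPM (change 0.32, limma adjusted p = 0.0387). In glycerolipid synthesis, 1 of 19 rose: Cds2, a CDP-diacylglycerol synthase, from 36.6 and 36.7 to 42.3 in each shCTCF library (change 0.20, limma adjusted p = 0.0472). Each of these 3 calls was lost without either shCTCF library (limma adjusted p from 0.0599 to 0.20). That of Acaa2 was also lost without shLAC replicate 2 (0.0574), and that of Cds2 without shLAC replicate 1 or 2 (0.0613 and 0.0524). The medians of these 6 lists lay from -0.05 (efflux) to 0.10 (beta-oxidation), with calls in 4.0% to 10.0% of tested members against 6.51% of all genes. Over all genes after scaling, Rabggta and Nceh1 (limma adjusted p = 0.0432) were the only ones of these 6 calls that passed.

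**Figure D4:**
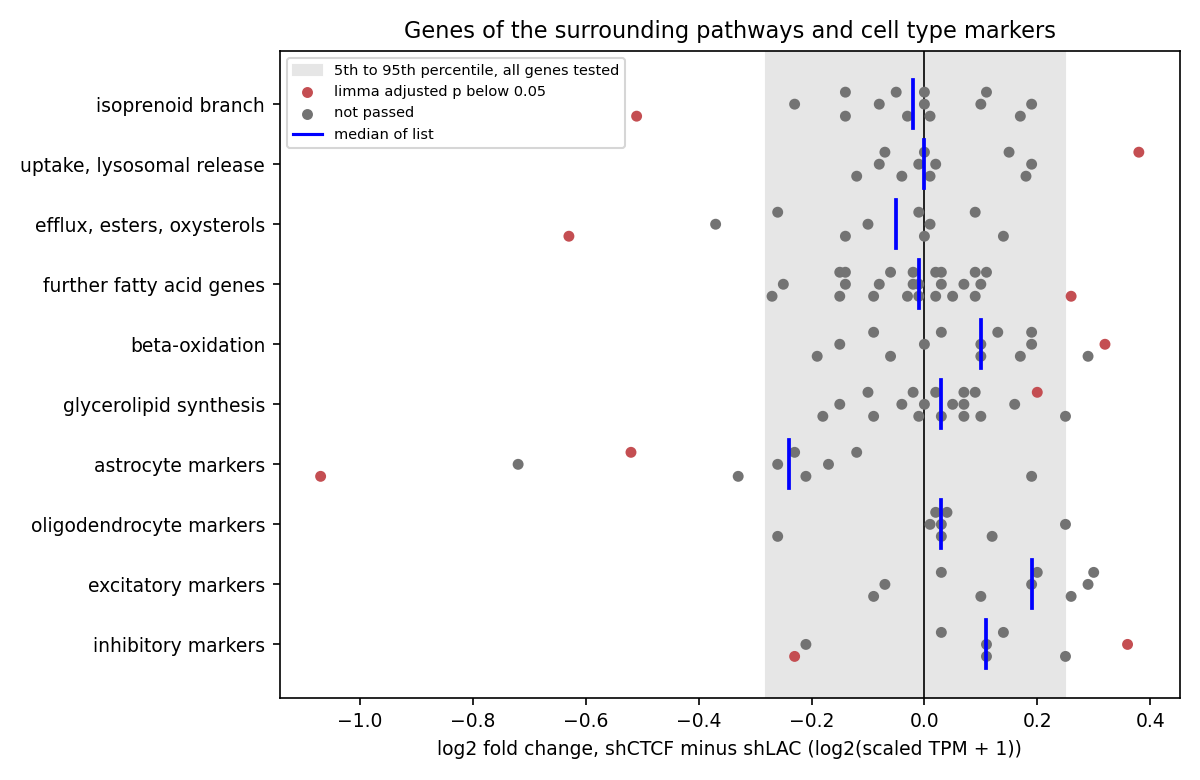
Log2 fold change (shCTCF minus shLAC) of each tested gene in 6 lists of lipid genes and 4 of cell type markers; red, limma adjusted p below 0.05; blue bar, list median; grey band, 5th to 95th percentile of all genes tested. Each lipid list holds 1 red point, and the astrocyte markers have the lowest median, -0.24.

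Markers of the cell types in the culture were examined because synthesis of sterols differs between them. In bulk RNA, fewer cells of a type and less RNA per cell cannot be told apart. Shares called are to be read against 6.51% of all genes (3.68% lower), and signs against 5560 of 11139 genes with a positive change. Of 11 astrocyte markers 10 were tested, 9 had a negative change and 2 passed (20%), Aqp4 (change -1.07, limma adjusted p = 0.012) and Slc1a3 (change -0.52, limma adjusted p = 0.017). Their sum was at 139.9 and 117.3 scaled TPM in shLAC and at 112.3 and 89.2 in shCTCF, so the groups did not overlap while replicates differed widely. Gjb6 was below 1 TPM in every library and 0 of the 11 were listed at 0. Among 9 excitatory neuron markers 0 passed, such as Slc17a7 at 75.3 and 67.8 in shLAC and 88.1 and 83.1 in shCTCF (limma adjusted p = 0.0654), and their sum was 116.2% of control. Among 8 tested inhibitory markers 2 passed (25.0%): Slc32a1 rose by 0.36 and Calb2 fell by 0.23 (limma adjusted p = 0.0417 and 0.0457). Without either shCTCF library both calls were lost (limma adjusted p from 0.0759 to 0.178), as was that of Calb2 without shLAC replicate 2 (0.056).

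Of 8 tested oligodendrocyte lineage markers 0 passed, and the sum ran from 74.1 to 87.8 scaled TPM in shLAC and from 79.8 to 88.4 in shCTCF. Microglial markers other than Cd68 (7 of 8), fibroblast markers other than Dcn (5 of 6) and all 6 endothelial markers were below 1 TPM in every library, and Cldn5 was listed at 0 in each. Dcn fell by 0.48 (limma adjusted p = 0.0182), a call lost without shCTCF replicate 2 (0.0844). The part of these marker differences in the values of Acat2 or of either branch was not tested.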

How the data were processed

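RNA-seq values of 4 libraries, 2 shLAC and 2 shCTCF, were used. The deposited values were TPM per Ensembl gene with 2 decimals, 1 file per library, each summing to 1000000 within rounding. Per the submitters' processing notes, CASAVA, RSEM 1.2.28 and mm10 were used. The sources used here do not give strandedness, aligner settings or annotation release, so antisense and overlapping genes could not be separated. TPM holds no depth, and a surplus of 1 RNA depresses all others in its library. Symbols, biotypes and positions came from GENCODE vM21 on GRCm38, which matched 37060 of 37437 identifiers.

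The test took protein-coding genes with 300 exonic nt or more that reached 1 TPM in 2 or more libraries, without predicted genes named Gm and a number. Values were divided by median-ratio factors over these genes, and log2(value + 1) was fitted with limma 3.58.1 in R 4.3.3 (trended prior, 4.79 prior degrees of freedom, no covariate, 2-sided, Benjamini-Hochberg). Fold changes on this scale understate those of low genes. Intervals are 95%, from the moderated standard error. The fit was tested on simulated data. No p was adjusted over a list alone.

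The 31 genes, the further lists, the fit and the promoter motifs were chosen with earlier results of these data known. By the naming rule, called genes, the most abundant uncalled sterol and fatty acid genes, the regulators and the called genes of each further list were described in full. Scap and the genes around Acat2 were chosen after their values were seen. Some genes of the further lists are not reported here. Alternatives were other scalings, filters, pseudocounts and priors, a block for the replicate number, and leaving out libraries singly.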

Additional observations from a re-analysis of the deposited data

How the results depend on the processing

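Acat2 was lower in all 13 alternatives and passed in 11, the exceptions being the values as deposited over all genes (relative change -0.60) and over coding genes (-0.59). The main test called 315 genes higher and 410 lower. There were 246 and 116 as deposited over all genes, 106 and 50 as deposited over coding genes, and 47 and 87 with median-ratio scaling over all genes. With no filter on low values there were 88 and 163, and with a minimum mean of 5 TPM 194 and 239. Equal sums gave 400 and 383 of the 11139 genes, and a robust prior 348 and 430, both more than the main test in total. Leaving out 1 library gave 84 to 531 higher and 173 to 654 lower, where the lone library of a group is assumed to vary like the other group. Among the 31 genes, 0 higher and 1 lower became 1 higher (Dhcr7) with equal sums, 1 higher and 2 lower (Dhcr7, Acat2 and Hsd17b7) with a robust prior, and 0 lower as deposited on either gene set. Leaving out 1 library gave 0 to 2 higher and 1 to 2 lower. The sterol sum became 114.2% of control as deposited and 101.5% with equal sums, and the fatty acid sum 114.1% and 101.4%. As deposited, the branch medians were 0.22 (sterol) and 0.21 (fatty acid). Relative to each fit's median over all genes, they and their difference moved by less than the spread between libraries in every alternative. The cause of these shifts was not tested.

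Replicate numbers are only 2 per group, and no label says that a number marks a shared culture or day. Deviations of same-numbered libraries correlated at 0.2509 across genes. With a replicate block, 641 genes were higher and 765 lower, and of the 31 genes 3 were higher (Dhcr7, Stard4 and Scd1) and 2 lower (Acat2 and Hsd17b7).

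Leaving out 1 library turned the sign of 7 uncalled genes, with ranges of -0.04 to 0.05 for Cyp51, -0.03 to 0.07 for Msmo1, -0.04 to 0.22 for Srebf1, -0.01 to 0.05 for Acsl3, -0.03 to 0.14 for Sc5d, -0.01 to 0.08 for Scd2 and -0.01 to 0.15 for Mvd. With 2 libraries per group and no depth in TPM, changes smaller than the intervals given could not be seen.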

Other observations

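Apoe, Fabp7, Clu and Acsbg1, 4 lipid genes known to be enriched in astrocytes or their precursors, were picked after their values were seen and are given as values only. In the limma fit 0 of the 4 passed, and Abca1 and Abcg1, sterol exporters of the same lists, had changes of 0.01 and -0.00. Apoe, the main lipoprotein component made by astrocytes, was at 143 and 127 scaled TPM in shLAC and at 115 and 94.9 in shCTCF. Its change was -0.37 (95% interval -0.60 to -0.14, limma adjusted p = 0.0765). Fabp7, the fatty acid binding protein of radial glia and astrocytes, was at 231 and 199 in shLAC and at 188 and 169 in shCTCF (change -0.27, limma adjusted p = 0.119). Clu, another apolipoprotein, was at 27.3 and 23.3 in shLAC and at 23.0 and 19.0 in shCTCF (limma adjusted p = 0.187). Acsbg1, an acyl-CoA synthetase, was at 14.8 and 11.6 in shLAC and at 12.1 and 9.69 in shCTCF (limma adjusted p = 0.291). The 10 tested genes of efflux, esterification and oxysterols, Apoe and Clu among them, had 7 negative and 3 positive changes. The 25 tested further fatty acid genes, which include Fabp7 and Acsbg1, had 14 negative and 11 positive changes. In each of the 4 picked genes replicate 1 was higher than replicate 2 in both groups, and the astrocyte marker sum showed the same order.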
